A study of Mus musculus with 4 samples.

Results

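Crypt base stem cell markers are genes by which the self-renewing cells at the bottom of the intestinal crypt are recognised. The 10 genes described here, Lgr5, Olfm4, Ascl2, Axin2, Smoc2, Rnf43, Znrf3, Cdca7, Sox9 and Lrig1, were picked out of the tables by their symbols. All 10 of 10 were found in both deposited tables, among 27425 genes listed in either. RNA was sequenced from small-intestinal crypts of male C57BL/6J mice at 9 weeks of age, with no genetic change named in the labels. There were 4 groups: fed and fasted mice without tetracycline, and fed and fasted mice given the antibiotic for 21 days, where fasting lasted 24 hours. The design text names depletion of what it abbreviates AKK as the purpose of the antibiotic, and asks how this alters expression in fed against fasted animals. The labels do not say how many animals a sample held.

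Columnar stem cells at the crypt base divide and feed the transit-amplifying zone above them, from which absorptive and secretory cells arise. Their state is held by Wnt signals, largely from neighbouring Paneth cells and the underlying stroma, and R-spondins amplify these signals through the receptors Lgr4 and Lgr5. Several of the markers are themselves Wnt targets, and some of those (Axin2, Rnf43, Znrf3) feed back to dampen the pathway. Fasting and refeeding are known to alter how intestinal stem cells behave.

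The labels list 1 sample in each of the 4 groups, but the values in each table were built from 4 libraries, 2 fasted and 2 fed. Whole counts of each library were recovered from the deposited means for 99.6% of the genes tested with a mean under 100000 in the table without tetracycline and 99.4% in that with it, and for all 10 markers. The recovered counts came to between 39800151 and 55501239 per library and held 70.3% and 70.6% of the summed mean. These libraries cannot be tied to labelled samples, so they are given as single values, in normalized counts (counts divided by the library's size factor), and of the pair on each side the library with the larger size factor is numbered 1. Nothing says that they came from separate animals, so the p-values measure only the spread between libraries, which may be technical. Epithelial transcripts such as Epcam were abundant, with a mean of 83703 and 68783 in the authors' deposited table without and with tetracycline. Transcripts of blood and connective tissue cells were also present, as given further on. In bulk RNA, fewer stem cells and less RNA per stem cell cannot be told apart. No column gives the direction of the change; fasted over fed was taken from how the tables are named, and every direction stated rests on that.

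No marker met the adjusted p threshold of 0.05 in either fasting comparison. In the authors' deposited table without tetracycline 0 of 10 were called, where 2.27% of the 18100 genes tested were. With tetracycline 0 of 10 were called, where 0.6% of 17993 genes were. At an unadjusted p under 0.05 the count was 1 of 10 (Lgr5) without tetracycline, against 10.8% of all genes, and 0 of 10 with it, against 5.34%. The signs were the same in both tables: 8 markers had a positive and 2 (Olfm4 and Axin2) a negative change, while 50.5% and 48.2% of all genes tested had a positive one. The markers' median log2 change was 0.23 without and 0.27 with tetracycline, beside 0.01 and -0.02 over all genes tested. The sign of the median with tetracycline rests on single libraries and on the centring: it was -0.55 without fasted library 1, -0.041 without fed library 1 and -0.065 when centred on the general epithelial genes.

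**Figure D1:**
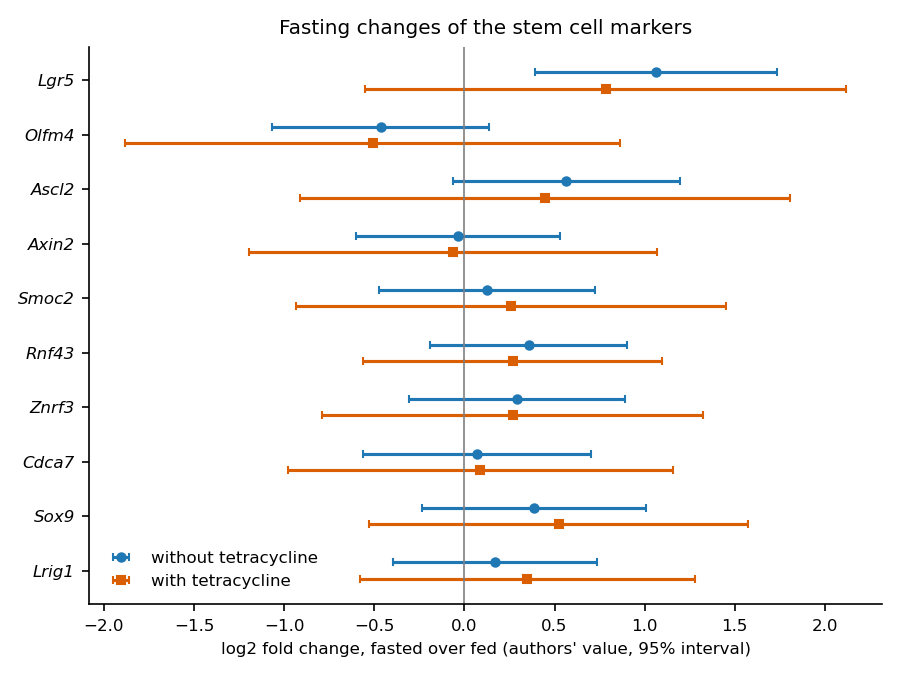
Log2 fold change of each marker, fasted over fed, from the authors' deposited table without (circles) and with tetracycline (squares). Bars are 95% intervals from the deposited standard errors. The interval of Lgr5 without tetracycline, 0.39 to 1.73, is the one of the 20 that does not include 0, and the intervals with tetracycline are wider for every marker.

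Levels between genes were compared per kb of annotated exon. Olfm4, a secreted glycoprotein of the crypt base, stood far above the others, with a mean level of 21567 normalized counts per kb without tetracycline. Cdca7 followed at 1355, then Axin2 at 795, Sox9 at 672, Lrig1 at 634, Smoc2 at 580, Ascl2 at 398 and Rnf43 at 392. Znrf3 at 84.6 and Lgr5 at 78.2 normalized counts per kb were the lowest. Over the 4 libraries, Cdca7 (1018 to 1627 per kb) did not overlap Axin2 (647 to 962 per kb), and Rnf43 (321 to 505 per kb) did not overlap Znrf3 (64.4 to 101 per kb). From Axin2 down to Rnf43, and between Znrf3 and Lgr5, the library ranges of neighbours in this order overlapped. With tetracycline the order was the same except that Lrig1 stood before Sox9 and Rnf43 before Ascl2, again within overlapping ranges.

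Promoter sequence was at hand for 6 of the 10 markers (Olfm4, Ascl2, Axin2, Rnf43, Cdca7 and Lrig1), as 7 windows of 250 bases before and 50 after a RefSeq start in GRCm38.p6. Wnt signals reach target genes through TCF and LEF factors, which bind DNA. The letters searched for, on both strands, were CAAAG preceded by 2 letters that are each A or T (ATCAAAG, for example). Of the 7 windows 0 held such a word, where 16.9% of 32851 promoter windows did. The core CAAAG, which lies within every such word, was in 0 of the 7 and in 53.9% of all windows. The absence says only that these letters are not in these windows. Shown here are the stretches before the start of Olfm4 and Ascl2, a pair whose ratio separated fed from fasted in all 8 libraries (given below), with CG pairs in capitals. They were chosen after the values were seen. Ascl2 lies at chr7:142969265-142969514 on the minus strand, outside any annotated gene. Olfm4 lies at chr14:80000052-80000250 on the plus strand, inside an intron of a longer annotated Olfm4 transcript and within the span of the lincRNA Gm6999, and it ends 51 bases before the RefSeq start because the bases after it are exonic in another transcript.
Ascl2: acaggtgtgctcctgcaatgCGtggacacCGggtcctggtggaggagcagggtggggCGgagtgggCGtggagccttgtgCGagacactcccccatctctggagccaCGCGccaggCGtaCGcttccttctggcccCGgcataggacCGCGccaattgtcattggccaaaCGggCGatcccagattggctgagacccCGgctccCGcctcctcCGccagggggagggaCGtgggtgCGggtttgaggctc
Olfm4: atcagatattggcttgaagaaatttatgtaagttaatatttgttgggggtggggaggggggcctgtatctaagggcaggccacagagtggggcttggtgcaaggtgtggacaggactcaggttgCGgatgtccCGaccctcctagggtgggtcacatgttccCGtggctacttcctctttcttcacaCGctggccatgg
The Ascl2 stretch of 250 bases held 19 CG pairs and 67.6% G or C, and the Olfm4 stretch of 199 bases held 4 CG pairs and 53.8% G or C. The median over all windows was 6 CG pairs and 52.4% G or C in the 250 bases before the start.

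Lgr5, the R-spondin receptor that defines the columnar stem cell (ENSMUSG00000020140.16, chr10:115450311-115587780 on the minus strand of GRCm38), had the largest positive change of the 10. Without tetracycline it had 1003 and 1168 normalized counts in the fasted and 665 and 375 in the fed libraries. Both fasted libraries lay above both fed libraries. The authors' deposited table gave a log2 change of 1.06 (SE 0.34), which is 2.09-fold with a 95% interval of 1.31 to 3.32. Its unadjusted p was 0.00191 and its adjusted p 0.0711 by DESeq2's Wald test with Benjamini-Hochberg adjustment, which misses the threshold. Leaving out any 1 library kept the log2 ratio of its means between 0.71 and 1.53. It ranked 486 by p among the 18100 genes tested, and 5.52% of genes had a larger change. With tetracycline Lgr5 had 1515 and 399 normalized counts in the fasted and 391 and 722 in the fed libraries. The groups overlapped, since fasted library 1 was the highest of the 4 and fasted library 2 was close to the lower fed library. The authors' deposited table gave 0.78 (SE 0.68, adjusted p 0.9999), or 1.72-fold with an interval of 0.683 to 4.34. Without fasted library 1 the ratio of means turned to -0.48 on the log2 scale, and without fasted library 2 it was 1.44.

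Olfm4 (ENSMUSG00000022026.8, chr14:79984081-80023139, plus strand) had the most negative change of the markers. Without tetracycline the fasted libraries held 46165 and 61216 normalized counts and the fed libraries 90280 and 57862. The groups overlapped, as 1 fed library lay between the fasted ones. The authors' deposited table gave -0.46 (SE 0.31, adjusted p 0.662). With tetracycline the fasted libraries held 75525 and 18132 and the fed libraries 42633 and 90519 normalized counts. Fasted library 2 was the lowest of the 4 and the groups overlapped. The authors' deposited table gave -0.51 (SE 0.70, adjusted p 0.9999), and the ratio of means was -1.88 without fasted library 1, 0.18 without fasted library 2 and 0.14 without fed library 2.

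Ascl2, a basic helix-loop-helix transcription factor that specifies the stem cell state (ENSMUSG00000009248.7, chr7:142966829-142969264, minus strand), showed 610.0 and 933 normalized counts in the fasted libraries against 553 and 490.3 in the fed ones without tetracycline. Both fasted libraries again lay above both fed ones. The authors' deposited table gave 0.56 (SE 0.32, adjusted p 0.556). Under tetracycline the values were 1154 and 268 normalized counts in the fasted libraries against 413 and 633 in the fed ones. The fasted libraries were here the highest and the lowest of the 4, and the authors' deposited table gave 0.45 (SE 0.69, adjusted p 0.9999).

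Rnf43 and Znrf3 are membrane E3 ubiquitin ligases that remove Wnt receptors from the cell surface and are themselves switched on by Wnt signals. Rnf43 (ENSMUSG00000034177.16, chr11:87662722-87735539, plus strand) had 2465 and 3311 normalized counts in the fasted libraries against 2405 and 2103 in the fed ones without tetracycline. Fasted lay above fed, but fasted library 1 and fed library 1 were close. With tetracycline it had 3340 and 2434 in the fasted libraries against 1966 and 2827 in the fed ones, and the groups overlapped. The change of Rnf43 in the authors' deposited table was 0.36 (SE 0.28, adjusted p 0.747) without and 0.27 (SE 0.42, adjusted p 0.9999) with tetracycline. Znrf3 (ENSMUSG00000041961.15, chr11:5276324-5444847, minus strand) had 675 and 795 normalized counts in the fasted libraries against 692 and 508 in the fed ones without tetracycline. Under tetracycline it had 1002 and 504 in the fasted libraries against 453 and 799 in the fed ones. The groups overlapped in both tables. In the authors' deposited table Znrf3 had a change of 0.29 (SE 0.30, adjusted p 0.852) without and 0.27 (SE 0.54, adjusted p 0.9999) with tetracycline.

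Axin2, a scaffold of the complex that destroys beta-catenin and a common readout of Wnt activity (ENSMUSG00000000142.16, chr11:108920349-108950783, plus strand), had a change near 0 in both tables. Its normalized counts were 4475 and 4176 in the fasted libraries against 5298 and 3562 in the fed ones without tetracycline. With it, they were 5655 and 2088 in the fasted libraries against 3097 and 4992 in the fed ones. In neither table did the groups separate, and the fasted libraries of the second table lay at both ends of the range. The authors' deposited table gave -0.03 (SE 0.29, adjusted p 0.992) without and -0.06 (SE 0.58, adjusted p 0.9999) with tetracycline. The 95% interval of Axin2 without tetracycline, -0.60 to 0.53, leaves out the Lgr5 value of 1.06 but overlaps the Lgr5 interval of 0.39 to 1.73. With tetracycline the Axin2 interval, -1.20 to 1.07, includes the Lgr5 value of 0.78. The changes of these genes were not tested against each other.

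Smoc2 encodes a secreted calcium-binding matrix protein enriched in Lgr5 cells, and Cdca7 a chromatin-associated protein of dividing cells. Smoc2 (ENSMUSG00000023886.11, chr17:14279506-14404790, plus strand) had 3656 and 4758 normalized counts in the fasted libraries against 4661 and 3061 in the fed ones without tetracycline, and 6716 and 2382 against 2602 and 5004 with it. Cdca7 (ENSMUSG00000055612.16, chr2:72476159-72486893, plus strand) had 3684 and 5199.7 in the fasted libraries against 5208 and 3258 in the fed ones without tetracycline, and 6034 and 2658 against 3038 and 5135 with it. For both genes 1 library of each side was high and 1 low, and the groups overlapped in both tables. The authors' deposited table gave Smoc2 a change of 0.12 (SE 0.31, adjusted p 0.964) without and 0.26 (SE 0.61, adjusted p 0.9999) with tetracycline. Cdca7 had 0.07 (SE 0.32, adjusted p 0.985) without and 0.09 (SE 0.55, adjusted p 0.9999) with tetracycline by the same values of the authors' deposited table.

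Sox9 and Lrig1 are also expressed beyond the columnar cells. Sox9, an HMG-box transcription factor that Paneth cells need as well (ENSMUSG00000000567.6, chr11:112782224-112787760, plus strand), had 2732 and 3558 normalized counts in the fasted libraries against 2967 and 1851 in the fed ones without tetracycline. With tetracycline it had 4082 and 1901 in the fasted libraries against 1539 and 2625 in the fed ones. The groups overlapped, and in both tables the highest library was a fasted and the lowest a fed one, as for Lgr5, Rnf43 and Znrf3. The share of all genes with this order was not computed. The authors' deposited table gave Sox9 0.38 (SE 0.32, adjusted p 0.773) without and 0.52 (SE 0.54, adjusted p 0.9999) with tetracycline. Lrig1, a membrane protein that restrains EGF receptor signalling (ENSMUSG00000030029.15, chr6:94604529-94700158, minus strand), had 3209 and 4294 normalized counts in the fasted libraries against 3784 and 2877 in the fed ones, and 4719 and 3104 against 2246 and 3898 with tetracycline. The highest of each 4 was again a fasted and the lowest a fed library. The change of Lrig1 in the authors' deposited table was 0.17 (SE 0.29, adjusted p 0.937) without and 0.35 (SE 0.47, adjusted p 0.9999) with tetracycline.

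**Figure D2:**
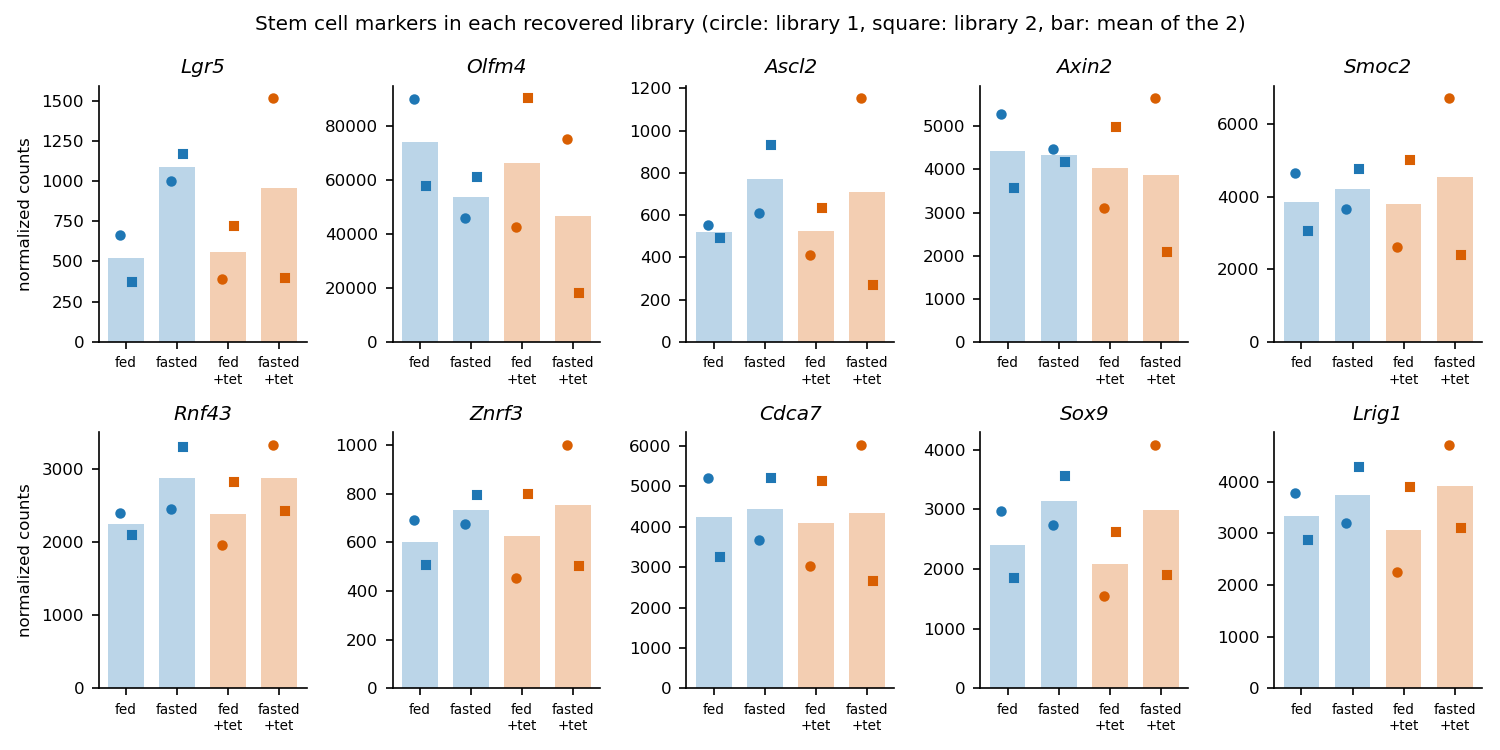
Normalized counts of the 10 markers in each recovered library, fed and fasted, without and with tetracycline (+tet); circles are library 1, squares library 2 and bars the mean of both, and the tables were scaled separately. Without tetracycline both fasted libraries lie above both fed ones for Lgr5, Ascl2 and, narrowly, Rnf43, and with tetracycline for no marker.

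The fasted libraries lay above both fed libraries for 3 of 10 markers (Lgr5, Ascl2, Rnf43) without tetracycline, where 21.7% of 17980 genes did so, and below them for 0 of 10, where 22.8% did. With tetracycline 0 of 10 lay above, where 16% of 17830 genes did, and 0 of 10 below, where 15.4% did. With tetracycline the values rested on single fasted libraries for the markers beyond Lgr5 and Olfm4 as well. Without fasted library 1 the log2 ratio of means was -0.96 for Ascl2, -0.95 for Axin2, -0.68 for Smoc2, -0.62 for Cdca7, -0.31 for Znrf3 and -0.13 for Sox9, and close to 0 for Rnf43 (0.022) and Lrig1 (0.015). Without fasted library 2 it was positive for all 8, from 0.48 for Rnf43 and Axin2 to 1.14 for Ascl2. The deposited standard errors of the markers had a median of 0.31 without and 0.56 with tetracycline, against 0.34 and 0.49 over all genes tested. Over genes with a mean of at least 50, as all markers had, the medians were 0.30 and 0.44. Exons of 3 of 10 markers overlap another gene, which leaves their counts somewhat uncertain. Olfm4 shares 153 exonic bases with Gm6999 on the same strand. Axin2 shares 209 with Gm11670 and Lrig1 shares 144 with Slc25a26, both on the opposite strand, which libraries without strand cannot tell apart.

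The difference between the fasting changes (with minus without tetracycline) was tested for each gene from both deposited changes and their standard errors by a two-sided Wald test, adjusted over 17571 genes. It was called for 0 of 10 markers, where 0.0228% of genes were called, and 0 of 10 had an unadjusted p under 0.05, where 1.05% of genes did. The differences ran from -0.28 for Lgr5 (SE 0.76, 95% interval -1.77 to 1.21) to 0.18 for Lrig1 (SE 0.55, 95% interval -0.91 to 1.27), with an adjusted p of 0.99997 for each marker. The Lgr5 interval includes both a loss of the whole change with tetracycline and a change larger than that without it.

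Levels with and without tetracycline were set side by side within each feeding state without a test, because the tables were scaled separately. Centred on the median of 13194 genes whose mean was 50 or more, the markers' median log2 difference (with minus without) was -0.05 in fed and -0.12 in fasted mice. In fed mice it ran from -0.23 for Sox9 (2409 to 2082 normalized counts) to 0.08 for Lgr5 (520 to 556.1). In fasted mice it ran from -0.27 for Olfm4 (53690 to 46829) to 0.04 for Smoc2 (4207 to 4549). With all 8 libraries put on one scale, the libraries with and without tetracycline overlapped for all 10 markers in both feeding states. Of 13076 genes on that scale, 15.2% lay above and 22.3% below in both fed libraries with tetracycline, and 7.22% above and 8.4% below in both fasted ones.

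The markers moved together between libraries of the same feeding state. Relative to library 1, library 2 had less of all 10 markers in the fed group without tetracycline (median log2 ratio -0.59), and more of 9 of 10, all but Axin2, in the fasted group (0.39). With tetracycline, library 2 had more of all 10 in the fed group (0.78) and less of all 10 in the fasted group (-1.31, from -2.10 for Ascl2 to -0.46 for Rnf43). Of all genes whose mean was 50 or more, between 45.0% and 50.1% were lower in library 2 in these pairs. Between the fasted libraries with tetracycline the spread of the log2 ratio over all genes (SD across genes) was 1.03, the widest of the 4 pairs, and the narrowest was 0.47.

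**Figure D3:**
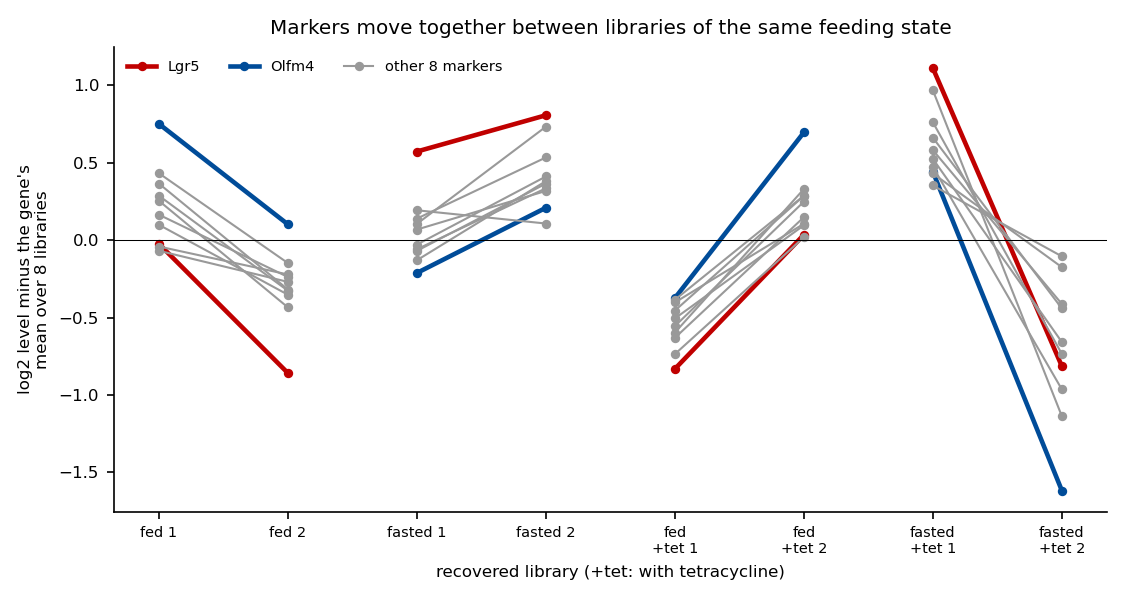
Log2 level of each marker in the 8 recovered libraries, put on one scale, minus that gene's mean over the 8; lines join the libraries of 1 group. Lgr5 is red, Olfm4 blue and the other 8 markers grey. In 3 of the 4 groups the 10 lines run the same way, and Olfm4 lies above Lgr5 in every fed and below it in every fasted library.

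Ratios of 2 genes within a library do not depend on how the libraries are scaled. They were computed after the library values had been seen, and they are given without a test. Lgr5 and Olfm4 had the largest positive and the most negative change of the 10 markers in both tables. Their ratio is thus the most extreme of the marker pairs, and the share of all genes given below does not allow for that choice. Lgr5 stood at 21.7 and 19.1 counts per 1000 Olfm4 counts in the fasted libraries without tetracycline, and at 7.36 and 6.48 in the fed ones. With tetracycline it stood at 20.1 and 22.0 in the fasted and at 9.18 and 7.97 in the fed libraries. All 4 fasted libraries, at 19.1 to 22.0, lay above all 4 fed libraries, at 6.48 to 9.18, and fasted library 2 with tetracycline, which was low in both genes, lay with the other fasted libraries. The ratio of the group means was 2.95-fold without and 2.45-fold with tetracycline. Of 13076 genes whose mean was 50 or more in both tables, 5.29% had a ratio to Olfm4 with all fasted above all fed libraries, which is 692 genes with Lgr5 among them. On level rather than ratio, 0 of 10 markers separated all fasted from all fed libraries on one scale, where 4.95% of genes lay above and 5.19% below.

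**Figure D4:**
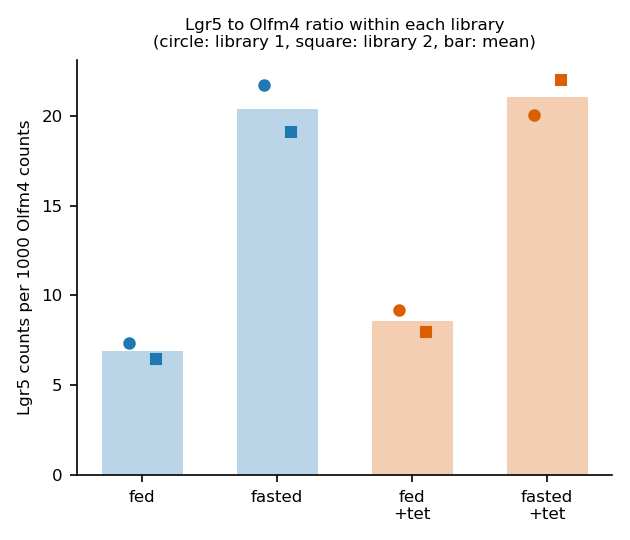
Lgr5 counts per 1000 Olfm4 counts within each of the 8 recovered libraries; circles are library 1, squares library 2 and bars the mean of both. The fasted libraries sit between 19.1 and 22.0 and the fed libraries between 6.48 and 9.18, without and with tetracycline (+tet).

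Of the 45 ratios between pairs of markers, 13 separated all fasted from all fed libraries, where 12.3% of the ratios between any 2 of the 13076 genes did. Lgr5 was in 5 of them and Olfm4 in 7, their own ratio among both. Lgr5 was higher in fasted libraries relative to 5 of the 9 others (Olfm4, Ascl2, Axin2, Smoc2 and Cdca7), where it stood so to 9.93% of all genes. Olfm4 was lower in fasted libraries relative to 7 of the 9 others (Lgr5, Ascl2, Smoc2, Znrf3, Cdca7, Sox9 and Lrig1), where 5.29% of all genes stood in that order to it. The 9 moved together between libraries, so these orders are not independent of each other. The log2 ratio of Olfm4 to Ascl2, fasted minus fed, was -0.98 without and -0.87 with tetracycline. The other 2 pairs were Axin2 and Cdca7, each lower relative to Sox9. Against the mean log2 level of the other 9 markers, Lgr5 was higher in all fasted than in all fed libraries, by 0.94 without and 0.47 with tetracycline, and Olfm4 was lower, with differences of -0.79 and -0.97. Set against the same 9 genes, 1.32% of 13066 genes outside the markers lay higher as Lgr5 did, and 6.31% lay lower as Olfm4 did. The remaining 8 markers overlapped on this measure. For Lgr5 the gap was narrow: with tetracycline, fasted library 2 stood at -2.31 and fed library 2 at -2.40. Olfm4 is among the 9 set against Lgr5, and Lgr5 among the 9 set against Olfm4, so these orders partly repeat each other.

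Markers of other cell types also differed between these libraries. Paneth cells sit between the columnar stem cells, and all 10 genes of the Paneth list had positive changes in both tables, with a median of 1.10 without and 1.22 with tetracycline. Of these, 6 rose without tetracycline, where 1.06% of all genes did (Mmp7, Ang4, Pla2g2a, Itln1, Defa24 and Defa30) and 0 met the threshold with it, in the authors' deposited table. The matrix metalloproteinase Mmp7, which processes defensins, changed by 2.07 (SE 0.26) in the authors' deposited table without tetracycline, while the defensin copies share reads and are uncertain singly. Summed over the 7 Paneth genes recovered with tetracycline, fasted library 2 held 75725 normalized counts, against 432982 in fasted library 1 and 100798 and 106721 in the fed libraries. The lactase gene Lct was the 1 enterocyte gene of 10 whose libraries could be recovered with tetracycline, so it does not stand for the list. It went the other way there, at 69982 in fasted library 2 against 10035 in fasted library 1 and 41582 and 43546 in the fed libraries. The part of these cell types in the marker values was not tested.

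The 9 genes of the cycling cell list all had negative changes, with a median of -0.63 without and -0.43 with tetracycline, and 0 of 9 met the threshold in either table. Their sums ran from 36502 to 73973 without and from 32938 to 73153 normalized counts with tetracycline, and fasted library 2 was the lowest of the libraries with tetracycline. In every pair of libraries the sum differed in the direction of the stem cell markers' median. The sums of the recovered Paneth genes and of other columnar stem cell genes did so too. Those of the goblet and erythrocyte genes did not in every pair. Blood and connective tissue markers had negative medians without and with tetracycline: -0.94 and -1.71 for lymphocytes, -1.09 and -1.61 for myeloid cells, -1.85 and -1.03 for stromal cells, -0.34 and -0.99 for endothelial cells and -2.64 and -1.36 for erythrocytes. The genes that fell without tetracycline numbered 2 of 6 lymphocyte, 1 of 5 myeloid, 3 of 6 stromal and 3 of 3 erythrocyte genes, where 1.22% of all genes fell, and 0 met the threshold with it. The lymphocyte sum with tetracycline was 3135 in fasted library 2, against 18381 in fasted library 1 and 55565 and 14643 in the fed libraries. Pancreatic acinar genes had medians of -1.57 and -0.60 with 0 of 5 called in either table. Of 10 enterocyte genes, with medians of 0.61 and 0.57, 1 (Fabp1) rose without tetracycline, where 1.06% of all genes did. Of 8 goblet genes (medians -0.27 and 0.29) 1, Agr2, and of 7 enteroendocrine genes (-0.18 and 0.55) 1, Cck, fell without tetracycline, where 1.22% of all genes did. Tuft cell genes had medians of 0.75 and 0.32 with 0 of 6 called without tetracycline, and general epithelial genes 0.07 and 0.33 with 0 of 4 called, where 2.27% of all genes were called. With tetracycline 0 genes of these lists met the threshold, where 0.6% of all genes did.

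The signals that maintain the stem cell niche were described from 12 lists of other genes. Over all lists, 3 of 131 genes tested rose and 3 fell without tetracycline in the authors' deposited table, which is 4.58%, where 2.27% of all genes were called (1.06% higher and 1.22% lower). With it 0 of 129 met the threshold, where 0.6% of all genes did (0.333% higher and 0.267% lower). These shares of all genes are the background for the counts of every list that follows. The median change over these genes was 0.15 without and 0.04 with tetracycline. The difference between the fasting changes was called for 0 of 129 genes by the Wald test, where 0.0228% of all genes were called. At an unadjusted p under 0.05 there were 3 of 129 (Clu, Id4 and Car4), where 1.05% of all genes passed.

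Among receptors for Wnt and R-spondin, 10 of 13 genes tested had a positive change without and 11 of 13 with tetracycline, 0 were called in either, and the median was 0.34 and 0.50. Fzd5, a Wnt receptor of the crypt, had 0.33 (SE 0.24) and 0.49 (SE 0.45), and Lgr4, the widely expressed relative of Lgr5, had 0.40 (SE 0.25) and 0.67 (SE 0.45) in the authors' deposited table without and with tetracycline. The Wnt ligand list had a median of -0.17 and -0.08 with 0 of 8 called in either table. In it Wls, which escorts Wnt proteins to the cell surface, had -0.36 (SE 0.31) and -0.18 (SE 0.49), and Wnt3, the ligand made by Paneth cells, had 0.90 (SE 0.32, adjusted p 0.130) and 1.18 (SE 0.68) in the authors' deposited table without and with tetracycline. The Wnt3 value with tetracycline rests on fasted library 1. Its normalized counts there were 709 and 177 in the fasted libraries against 172 and 220 in the fed ones. R-spondins were barely read: of 4 listed, 3 were found, and only Rspo1 was tested (Rspo4 and Rspo3 carried no adjusted p). Rspo1 had -1.28 (SE 1.49) without and -0.12 (SE 1.77) with tetracycline in the authors' deposited table. The sums of the R-spondins per library ran from 4.96 to 34.6 normalized counts. Secreted or membrane Wnt inhibitors had a median of -0.02 and 0.16 with 0 of 8 called in either table. The most abundant of them, Kremen1, a co-receptor of Dickkopf proteins, had 0.15 (SE 0.27) and 0.15 (SE 0.39), and Sfrp5, which binds Wnt proteins, had -1.001 (SE 0.33, adjusted p 0.0862) and -0.76 (SE 0.78) in the authors' deposited table without and with tetracycline.

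Inside the cell, the beta-catenin destruction complex had a median of 0.15 and -0.04 with 0 of 12 genes called in either table. Its most abundant members were the kinases Csnk1a1, with -0.06 (SE 0.26) and -0.13 (SE 0.38), and Gsk3a, with -0.05 (SE 0.27) and -0.04 (SE 0.41), in the authors' deposited table without and with tetracycline. Beta-catenin and the TCF factors had a median of 0.00 and -0.10 with 0 of 9 called in either table. Ctnnb1, which encodes beta-catenin, had 47463 and 36877 normalized counts in the fasted libraries against 42066 and 42164 in the fed ones without tetracycline. The fed libraries lay between the fasted ones, and the authors' deposited table gave 0.00 (SE 0.26) without and -0.15 (SE 0.36) with tetracycline. Bcl9l, a co-activator of beta-catenin, had 0.76 (SE 0.26, adjusted p 0.117) and 0.29 (SE 0.36) in the authors' deposited table without and with tetracycline.

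Other Wnt targets of the crypt had a median of 0.15 and 0.37, and 1 of 15 rose without tetracycline, where 1.06% of all genes did, and 0 of 15 met the threshold with it. The gene that rose was Nkd1, a Wnt target that inhibits Dishevelled. Nkd1 had 170 and 187 normalized counts in the fasted libraries against 52.6 and 64.3 in the fed ones without tetracycline. Both fasted libraries stood well above both fed ones, and the authors' deposited table gave 1.61 (SE 0.42, adjusted p 0.00859). With tetracycline Nkd1 had 325 and 77.05 in the fasted libraries against 58.3 and 93.8 in the fed ones. These overlapped, and the authors' deposited table gave 1.41 (SE 0.76, adjusted p 0.985). The most abundant genes of this list were Ephb2, a receptor that positions cells along the crypt, with 0.00 (SE 0.29) and 0.24 (SE 0.52), and the cyclin Ccnd1, with -0.49 (SE 0.25) and -0.59 (SE 0.62), in the authors' deposited table without and with tetracycline.

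Of 19 other genes of columnar stem cells, 0 rose and 2 fell without tetracycline, where 1.06% and 1.22% of all genes did, and 0 met the threshold with it, where 0.6% did. Positive changes were found for 14 of 19 in each table, where 50.5% and 48.2% of all genes had one, with a median of 0.25 and 0.16. The 2 that fell were the urea transporter gene Slc14a1 and Clca3b, of the family of calcium-activated chloride channel regulators. Slc14a1 had 214 and 205 normalized counts in the fasted libraries against 735 and 369.7 in the fed ones without tetracycline. The authors' deposited table gave it -1.40 (SE 0.39, adjusted p 0.0181) without and -1.09 (SE 0.64, adjusted p 0.9999) with tetracycline. Without tetracycline Clca3b had 11509 and 13541 in the fasted libraries against 28911 and 19457 in the fed ones. The groups were thus apart for both genes there. The change of Clca3b in the authors' deposited table was -0.95 (SE 0.29, adjusted p 0.0473) without and -1.04 (SE 0.63, adjusted p 0.9999) with tetracycline. With tetracycline Slc14a1 had 362 and 113 in the fasted libraries against 399 and 617 in the fed ones, which were apart. Clca3b had 15666.5 and 4614 in those fasted libraries against 15249.5 and 26567 in the fed ones, which overlapped. Slc12a2, a chloride cotransporter abundant in the same list, had 0.55 (SE 0.35) and 0.44 (SE 0.61) in the authors' deposited table without and with tetracycline.

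Genes linked to reserve cells at the +4 position had a median of 0.05 and 0.07, and 1 of 5 rose without tetracycline. It was Clu, which encodes clusterin and marks revival stem cells after injury. Clu had 2864 and 681 normalized counts in the fasted libraries against 69.5 and 107 in the fed ones without tetracycline. Both fasted libraries were far above the fed ones, and library 1 held most of the counts. The authors' deposited table gave 4.32 (SE 0.98, adjusted p 0.00128), while the ratio of means was 2.94 on the log2 scale without fasted library 1 and 5.02 without fasted library 2. With tetracycline Clu had 243 and 414 in the fasted libraries against 129 and 160 in the fed ones, which were apart but closer, and the authors' deposited table gave 1.18 (SE 0.50, adjusted p 0.682). The difference between these changes was -3.14 (SE 1.10), with an unadjusted p of 0.0044 and an adjusted p of 0.99997 by the Wald test, so it was not called. The more abundant Hopx had -0.46 (SE 0.28) and -0.11 (SE 0.38), and Bmi1 had 0.06 (SE 0.29) and 0.07 (SE 0.36) in the authors' deposited table without and with tetracycline.

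Notch genes, which balance absorptive and secretory fates, had a median of 0.02 and -0.12 with 0 of 16 and 0 of 15 called. Hes6 had -0.36 (SE 0.29) and -0.12 (SE 0.36), and the Notch target Hes1 had -0.34 (SE 0.30) and -0.12 (SE 0.52) in the authors' deposited table without and with tetracycline. The BMP list, whose signals oppose stemness toward the villus, had a median of 0.13 and -0.16 and 1 of 15 genes, Id4, fell without and 0 of 14 were called with tetracycline. Id4, an inhibitor of helix-loop-helix factors, had 94.5 and 88.2 normalized counts in the fasted libraries against 247 and 252 in the fed ones. The groups were clearly apart, and the authors' deposited table gave Id4 -1.45 (SE 0.37, adjusted p 0.00609) without and -0.06 (SE 0.48, adjusted p 0.9999) with tetracycline. The difference for Id4 was 1.39 (SE 0.60, unadjusted p 0.0209, adjusted p 0.99997 by the Wald test). Smad4 had 0.56 (SE 0.30) and 0.13 (SE 0.41), and the receptor Bmpr1a had 0.13 (SE 0.25) and 0.13 (SE 0.46) in the authors' deposited table without and with tetracycline.

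The EGF receptor list, on which Lrig1 acts, had a median of 0.23 and 0.26, and 1 of 16 genes rose without and 0 of 16 met the threshold with tetracycline. The gene was Erbb3, a receptor for neuregulins, with 37412 and 31027 normalized counts in the fasted libraries against 16100 and 16855 in the fed ones without tetracycline. Fasted was far above fed, and the authors' deposited table gave Erbb3 1.05 (SE 0.25, adjusted p 0.00285). With tetracycline Erbb3 had 21648 and 58519 in the fasted libraries against 13635 and 20143 in the fed ones, and the authors' deposited table gave 1.25 (SE 0.57, adjusted p 0.809). There fasted library 2, which was low in the stem cell markers, held the most. Erbb2 had 0.43 (SE 0.24) and 0.73 (SE 0.44) in the authors' deposited table without and with tetracycline.

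**Figure D5:**
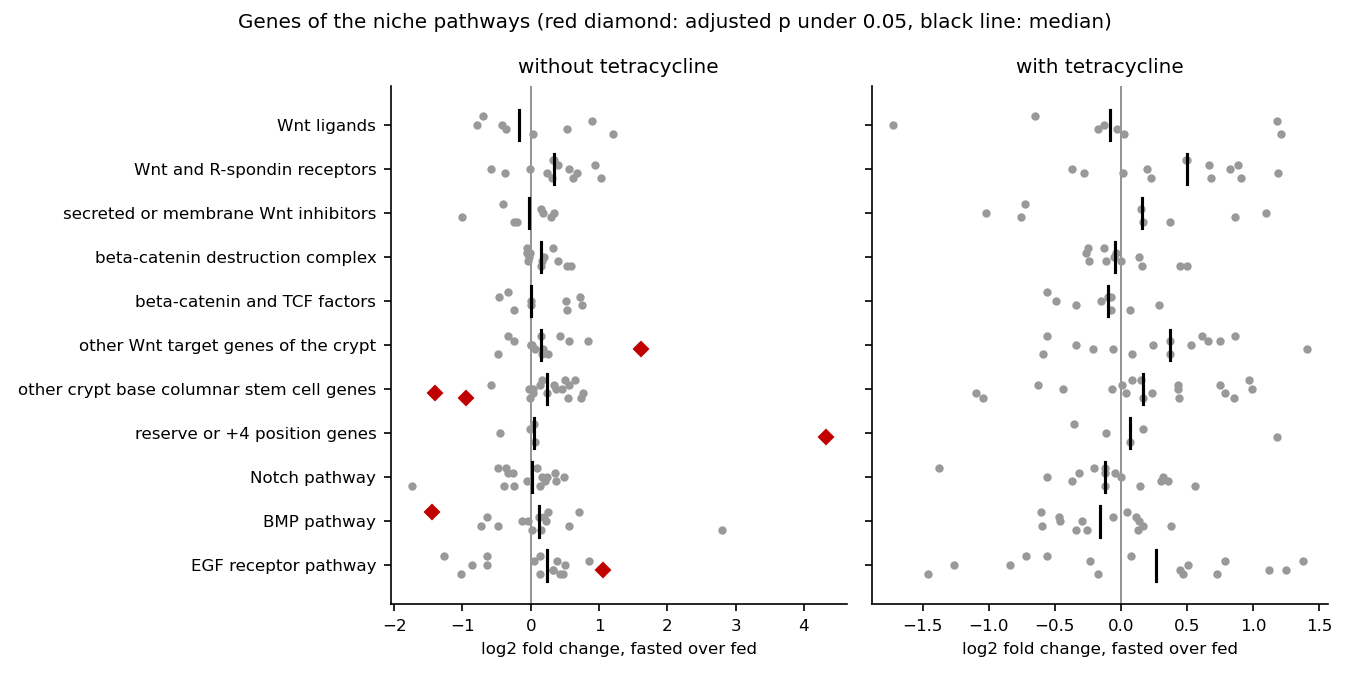
Log2 fold change, fasted over fed, of each gene tested in 11 of the 12 niche lists (the R-spondins, with 1 gene tested, are not drawn), without and with tetracycline, from the authors' deposited table; the x axes of the panels differ in range. Red diamonds are genes with an adjusted p under 0.05 and black lines are list medians. All 6 diamonds (Nkd1, Slc14a1, Clca3b, Clu, Id4 and Erbb3) are in the panel without tetracycline.

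The genes nearest to Lgr5 were those with the smallest distance in the pair of log2 changes, without and with tetracycline, among the 9292 genes whose mean was 500 or more in both tables. They were Nupr1 (1.07 and 0.76), Pbld1 (1.09 and 0.77), Prss30 (1.12 and 0.84), Gm42428 (1.08 and 0.86) and Clca4b (1.15 and 0.80) in the authors' deposited table. Of these, Nupr1 (adjusted p 0.0165), Pbld1 (0.0241) and Gm42428 (0.00127) were called without tetracycline by the authors' Wald test, and none was called with it. The genes nearest to Olfm4 were Mis12 (-0.45 and -0.51), Pttg1 (-0.46 and -0.50), Gramd3 (-0.45 and -0.51), Lrwd1 (-0.46 and -0.49) and Chaf1a (-0.44 and -0.52) in the authors' deposited table. None of the 5 was called in either table, and likeness here rests on 2 values per gene.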

How the data were processed

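Crypts were detached with EDTA, made into single cells with trypsin, and sequenced with a non-directional kit, per the labels' protocols. Salmon, DESeq2 and mm10 are named in the submitters' processing notes, with no version or role. The deposited material was 2 tables of fasting comparisons with the columns of DESeq2, per the file headers. The authors' mean is a signal: counts divided by size factors, averaged over libraries. The authors gave the fold change and its standard error as log2 values. Their quotient is a score, the Wald statistic of the authors. The deposited p-values are also given after Benjamini-Hochberg adjustment. There were 0 unused per-sample columns.

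Each deposited mean is a weighted sum of whole counts, with 1 weight per library. Whole counts were recovered from these sums, and kept only where a fit of both groups to them returned the deposited fold change within 1e-05. On simulated counts, 400 of 400 genes came back exactly in each table and 0 wrongly. The simulated fold changes came from the same fit that the recovery used, so the simulation does not test that fit. Olfm4, with means of 63881 without and 56702 with tetracycline, lay above the range simulated. Since these libraries match no labelled sample, no count model was run on them. The design had no values per library in view; calls are the authors' adjusted p under 0.05. Size factors were 0.93 to 1.09 without and 0.727 to 1.27 with tetracycline.

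Python 3.11.15, numpy 2.4.6, pandas 2.3.3 and scipy 1.17.1 were used. Identifiers were matched without version to GENCODE mouse release M21 (GRCm38) for positions and exon length. The members and lists (12 of pathways, 13 of cell types) were chosen with earlier results of these data known, and some genes stand in more than 1 list. Genes named beyond the 10 markers are those called in a list, the 2 with the highest mean in each pathway list, and the 5 nearest to Lgr5 and to Olfm4; Car4 and the cell type genes were named after their values were seen. Alternatives were other thresholds, centrings and pseudocounts (10 for 1), leaving out each library, one scale for 8 libraries and ratios within a library, the last 2 added after seeing the data.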

Additional observations from a re-analysis of the deposited data

How the results depend on the processing

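The count of markers called stayed at 0 in both fasting comparisons and for their difference at an adjusted p under 0.01 and when p was adjusted over genes with a mean from 50 upward, and for the difference also with the statistic divided by its robust SD. The lowest adjusted p was then 0.0615, for a marker without tetracycline. With tetracycline, the median change of 0.27 turned to -0.065 when centred on the epithelial genes, a list of 4 whose median moved by 0.33. Leaving out 1 library gave medians of 0.036 to 0.46 without tetracycline and of -0.55 to 0.76 with it, where it was -0.55 without fasted library 1 and -0.041 without fed library 1. Of single markers, 8 of 40 such values changed sign without and 13 of 40 with tetracycline. Centring on all genes with a mean of at least 50 kept all signs. The median differences with tetracycline kept their sign under every centring, pseudocount and scale run. No paired analysis was possible because the deposited columns carry no replicate numbers and the labels list 1 sample per group. With 2 libraries per side of unknown source, small changes may have been missed. An interval that excludes 0 was not enough for a call, as Lgr5 without tetracycline shows.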
